A study of Mus musculus with 6 samples.

Results

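Calcium-triggered transmitter release was described through 10 genes of the synaptotagmin and complexin families: *Syt1*, *Syt2*, *Syt4*, *Syt5*, *Syt7*, *Syt9*, *Syt11*, *Cplx1*, *Cplx2* and *Cplx3*. They were taken by gene name from the assembly that the authors deposited, and each of the 10 lay on a single locus that carried no other gene name, among 34632 loci of which 23985 were named. RNA came from whole brainstems of mice at postnatal day (P) 21, in 3 libraries labelled *Hoxa5* cKO (Hoxa5flox/flox;CMV-CreERT2+/-) and 3 labelled *Hoxa5* control (Hoxa5flox/flox;CMV-CreERT2-/-), each made from a pool of 3 brainstems. Both genotypes carried the floxed *Hoxa5* allele on both chromosomes and both were given tamoxifen from P1 to P4, so they differed by the CreERT2 transgene, a tamoxifen-activated recombinase under the broadly active CMV promoter. The crosses gave pups of both genotypes in a litter, on a mixed background that was mainly 129/Sv, and the litters behind each pool are not given in the sources used here. The libraries held 12034613 to 13202707 fragments.

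In 2 of 6 libraries the locus of the targeted gene went against the label. The locus that holds *Hoxa5* (with 279, 57 and 63 fragments in libraries labelled cKO, against 202, 337 and 77 in libraries labelled control) stood high in replicate 1 of the cKO label and low in replicate 3 of the control label. It is a merged locus that *Hoxa5* shares with neighbouring genes. Genotypes are therefore given as labelled, and each direction rests on these labels. Replicate numbers are those of the deposited table counted from 1 and are not tied to the numbered pools. Whole brainstem RNA cannot tell fewer cells of a type from less RNA per cell.

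Synaptotagmins are vesicle proteins with a pair of calcium-binding domains that join calcium entry to fusion of the vesicle with the plasma membrane. SYT1, SYT2 and SYT9 are the fast sensors, which drive the release that follows an action potential within a very short delay, and each can support it when the others are missing. In rodents SYT1 prevails in the forebrain, while SYT2 is the main fast sensor of many hindbrain and spinal synapses, such as the calyx of Held in the auditory brainstem. SYT7 binds calcium more tightly and serves slower, asynchronous release and facilitation. SYT4 and SYT11 are atypical members that lack a conserved calcium-binding residue in the domain nearer the N-terminus. Complexins are small cytosolic proteins that bind the assembled SNARE complex, the bundle of proteins that fuses membranes, and both hold it ready and assist the sensor.

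The loci of the 3 fast sensors lie on different chromosomes (mm10): *Syt1* on chromosome 10 from 108497650 to 109011091, *Syt2* on chromosome 1 from 134646545 to 134755400, and *Syt9* on chromosome 7 from 107370790 to 107548655. Their upstream sequences are shown because the fast sensor makeup turns on these genes and the stretches before their start sites differ in base composition. Each is the 250 bases before a RefSeq start site (GRCm38.p6, the same assembly as mm10; the first start listed for the gene), in the direction of the gene, with capitals for matches on either strand to GGGCGG (the GC box), CCAAT (the CCAAT box), or TAAT (the core of many homeodomain sites). TATAAA (the TATA box) and TGACGTCA (the cAMP response element) were also searched on both strands and had no match in these windows. By their coordinates, the windows of *Syt1* and *Syt2* reach partly into the loci as assembled here. That of *Syt9* ends just before its locus.
Syt1, chr10:109010976-109011225, minus strand: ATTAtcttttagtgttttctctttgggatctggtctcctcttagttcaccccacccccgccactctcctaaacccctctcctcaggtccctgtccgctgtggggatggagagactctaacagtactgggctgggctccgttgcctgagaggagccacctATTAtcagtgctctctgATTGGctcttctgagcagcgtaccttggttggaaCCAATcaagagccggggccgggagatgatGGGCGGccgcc
Syt2, chr1:134646362-134646611, plus strand: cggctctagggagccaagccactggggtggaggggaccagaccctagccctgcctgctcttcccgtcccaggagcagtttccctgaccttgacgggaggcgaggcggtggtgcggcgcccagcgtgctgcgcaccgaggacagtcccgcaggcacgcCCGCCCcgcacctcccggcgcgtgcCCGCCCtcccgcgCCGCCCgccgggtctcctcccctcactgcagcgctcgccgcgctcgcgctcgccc
Syt9, chr7:107370540-107370789, plus strand: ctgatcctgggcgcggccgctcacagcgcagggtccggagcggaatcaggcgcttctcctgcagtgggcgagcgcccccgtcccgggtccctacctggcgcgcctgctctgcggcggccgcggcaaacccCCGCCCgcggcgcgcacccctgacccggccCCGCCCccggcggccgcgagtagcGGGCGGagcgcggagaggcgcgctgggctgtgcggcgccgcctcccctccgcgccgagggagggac

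The upstream windows of *Syt2* and *Syt9* were 76.0% and 80.4% G or C, with 30 and 40 CpG dinucleotides, and each held 3 GC boxes and no TAAT. The window of *Syt1* was 56.4% G or C, with 8 CpG dinucleotides, 1 GC box, 2 CCAAT boxes and 2 TAAT cores. Over the first listed window of 27025 genes the median was 52.0% G or C and 6 CpG dinucleotides, and 96.9% of windows had a lower G or C content than that of *Syt2*. Of the 7 members with a window in the table, 5 held a GC box, against 32.9% of all windows, 5 held a TAAT core, against 55.3%, 2 held a CCAAT box, against 34.5%, and none held a TATA box, against 13%, or a cAMP response element, against 1.6%. These matches describe letters and not bound sites.

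*Cplx1* was the most abundant of the 10 genes per length and *Cplx3* the least. Levels between genes are given as FPKM (fragments per kilobase of transcript at a common library size, as Cuffdiff gave them), as the mean ± SD over all 6 libraries. *Cplx1* had 199.4 ± 6.38 FPKM, and *Syt11*, which has been linked to the control of membrane retrieval, had 163.9 ± 6.45. Both fast sensors *Syt2* (69.2 ± 2.30) and *Syt1* (67.5 ± 3.67) came next, followed by *Syt4* (52.6 ± 3.39) and *Cplx2* (43.5 ± 2.37). *Syt7* had 20.6 ± 0.824 FPKM and *Syt5*, a calcium-binding isoform found on dense-core vesicles, had 11.4 ± 0.958. *Syt9* stood at 5.40 ± 0.463 and *Cplx3*, the complexin of retinal ribbon synapses, at 0.148 ± 0.0679.

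Of the 9 neighbouring pairs in this order, 8 kept it in each of the 6 libraries (two-sided exact sign-flip permutation test on log2 FPKM within libraries, p = 0.0313 for each, the smallest that 6 libraries allow, Benjamini-Hochberg adjusted p = 0.0352 over 9 pairs). The exception was *Syt2* over *Syt1*, a difference of 0.037 on the log2 scale that held in 4 of 6 libraries (same exact permutation test, p = 0.406). The order was taken from these same values, so the p-values describe how steady it was among libraries and are no separate support for it. They also do not cover the transcript length that each FPKM rests on. The step from *Syt9* to *Cplx3* was 39.6-fold, and the other steps were at most 2.37-fold. *Cplx3* had 3, 6 and 7 fragments in libraries labelled cKO and 4, 3 and 10 in controls. These sums of 16 and 17 fragments have exact Poisson 95% intervals of 9.15 to 26.0 and 9.90 to 27.2, which cover counting error only.

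**Figure D1:**
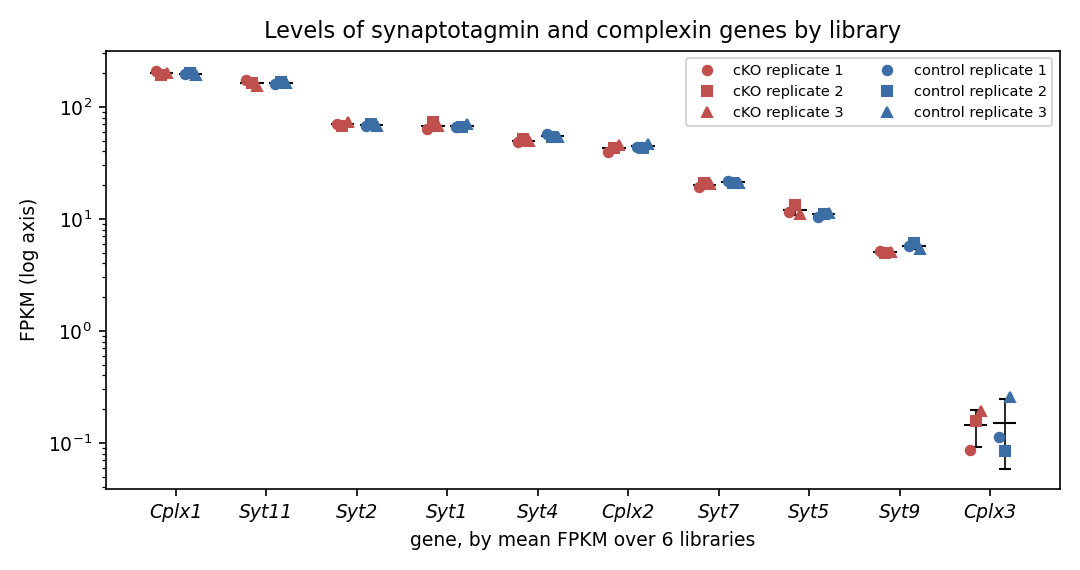
FPKM of the 10 genes (y axis, log scale) ordered by their mean over 6 libraries (x axis), where each point is a library (colored by label, shaped by replicate) and bars give each label's mean and SD over 3 libraries. The genes run from *Cplx1* near 199.4 FPKM to *Cplx3* near 0.148 FPKM, and *Syt2* and *Syt1* lie side by side.

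By FPKM, the fast sensor transcripts of the brainstem were made up of nearly equal parts of *Syt2* and *Syt1*, with little *Syt9*. *Syt2* took 50.7%, 46.3% and 50.2% of the summed FPKM of the 3 genes in libraries labelled cKO, against 48.4%, 49.5% and 47.2% in libraries labelled control. The groups overlapped, with cKO replicate 2 lowest and cKO replicate 1 highest. The share averaged 49.1% ± 2.41 in the cKO libraries and 48.3% ± 1.15 in controls (SD, n = 3 each, difference 0.773 percentage points, p = 0.7 by two-sided exact permutation). *Syt1* took 47.4% ± 2.53 in cKO libraries and 47.6% ± 1.41 in controls (SD, n = 3 each; same exact test, p = 1).

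*Syt9* was the only one of the 3 fast sensors whose share parted by label. It made up 3.72%, 3.4% and 3.46% of the summed FPKM in libraries labelled cKO, against 4.17%, 4.31% and 3.79% in controls, so each cKO library lay below each control. By CPM, 6.54% of all loci tested parted by label in this direction. The means were 3.52% ± 0.170 and 4.09% ± 0.270 (SD, n = 3 each, p = 0.1 by two-sided exact permutation, a p that 3 against 3 libraries cannot go below). The summed FPKM of the 3 genes was 143.1 ± 4.17 in cKO libraries and 141.2 ± 2.36 in controls (SD, n = 3 each; same exact test, p = 0.6).

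The balance of *Syt2* and *Syt1* differed more among libraries of 1 label than between labels. The log2 ratio of *Syt2* to *Syt1* FPKM was 0.16, -0.12 and 0.12 in cKO replicates 1, 2 and 3, against 0.027, 0.098 and -0.056 in control replicates 1, 2 and 3. The cKO replicate 2 and control replicate 3 libraries held more *Syt1* than *Syt2*, and the other 4 held more *Syt2*. The means were 0.052 ± 0.15 and 0.023 ± 0.077 (SD, n = 3 each, p = 0.8 by two-sided exact permutation). Which of the pair came first depended on the length used. The *Syt2* locus joins 9693 exonic bases in 3 assembled transcripts and the *Syt1* locus 4936 bases in 5. With fragments per kilobase of all exonic bases in place of FPKM, *Syt1* made up 53.0% and *Syt2* 42.4% on average over the 6 libraries, and the log2 ratio was below 0 in each library, from -0.47 to -0.22. By fragments with no regard to length, *Syt1* made up 37.9% and *Syt2* 59.6% on average over the 6 libraries.

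*Cplx1* made up most complexin transcripts. Its share of the summed FPKM of *Cplx1*, *Cplx2* and *Cplx3* was 84.1%, 81.7% and 81.4% in libraries labelled cKO, against 81.7%, 82.5% and 80.7% in controls. The ranges overlapped, with the highest share in cKO replicate 1 (means 82.4% ± 1.5 and 81.6% ± 0.887, SD over 3 libraries each, p = 0.6 by two-sided exact permutation). *Cplx2* made up nearly all of the rest, with 15.8% to 19.2% over the 6 libraries, and *Cplx3* made up at most 0.107%. The summed complexin FPKM was 1.71 ± 0.0966 times that of the fast sensors in cKO libraries and 1.72 ± 0.0272 times in controls (SD, n = 3 each; same exact test, p = 1).

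**Figure D2:**
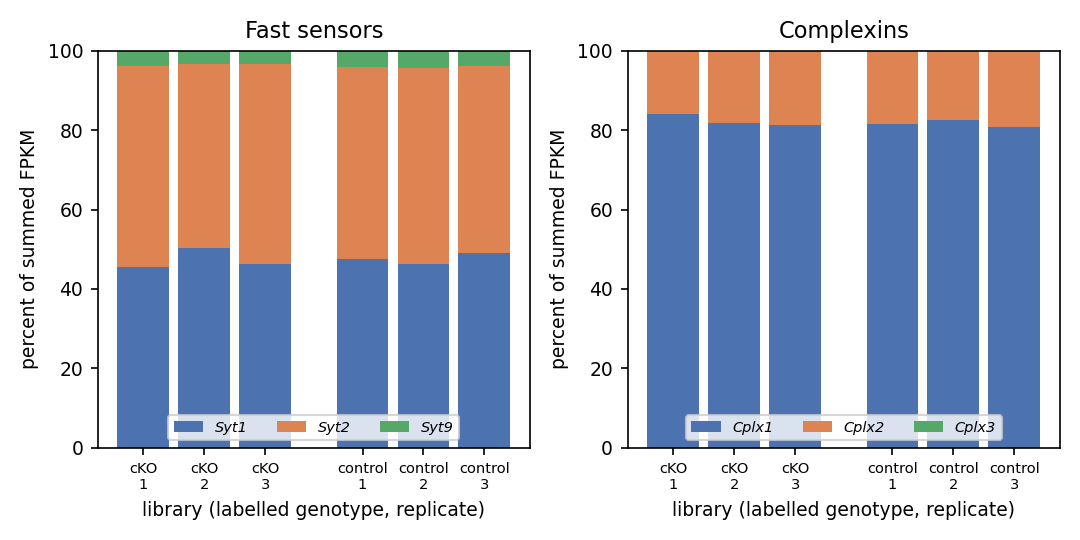
Percent of the summed FPKM (y axis) taken by each fast sensor gene (left) and each complexin gene (right) in each library (x axis, labelled genotype and replicate), drawn as bars stacked to 100%. *Syt2* ranges from 46.3% to 50.7% and *Cplx1* from 80.7% to 84.1%, and the share of *Cplx3*, at most 0.107%, is too small to be seen.

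No synaptotagmin or complexin gene passed the test between labelled genotypes. Each of 21854 loci with enough fragments for edgeR's filter entered its quasi-likelihood test, and a locus was called at a Benjamini-Hochberg adjusted p under 0.05. 9 of the 10 members were tested and *Cplx3* was not. edgeR called 0 of the 9, against 0.531% of all loci tested (0.503% lower and 0.0275% higher). DESeq2 called none either and gave *Cplx3* no adjusted p, where it called 112 lower and 4 higher of 30931 loci. limma on log2(FPKM + 1) called 0 of the 9, and 0 of all 19282 loci it tested. Its 0 here and in the gene lists below therefore says nothing of these genes in particular. At an unadjusted p under 0.05 from edgeR, 2 members, *Syt4* and *Syt9*, were lower and 0 were higher, against 4.03% lower and 2.91% higher of all loci. In the same 2 members all cKO libraries lay below all control libraries, as in 6.54% of all loci. The median log2 fold change of the 9 members, labelled cKO over labelled control, was 0.0047, and that of all loci was 0.0034.

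**Figure D3:**
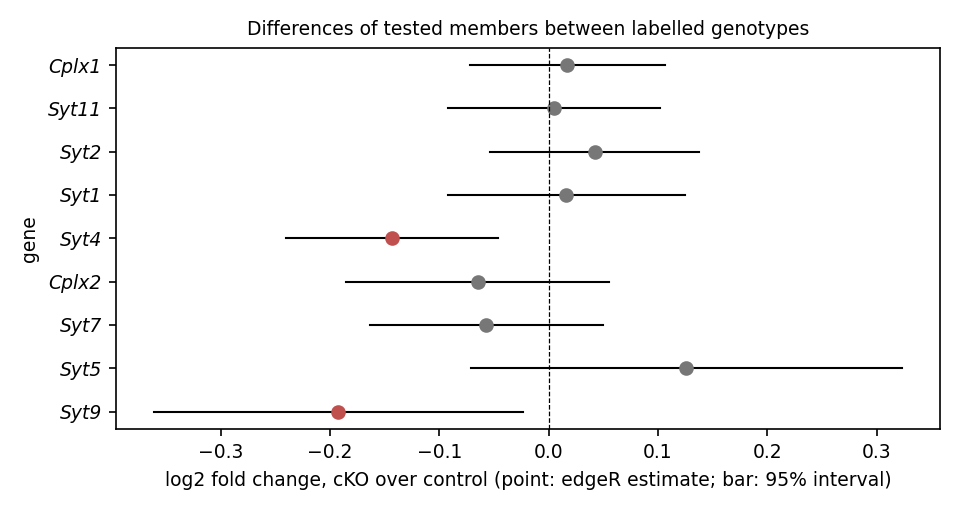
Log2 fold change of the 9 tested members, labelled cKO over labelled control (x axis), by gene (y axis), with points for the edgeR estimate and bars for its 95% interval. Red points mark *Syt4* (-0.14) and *Syt9* (-0.19), whose libraries do not overlap by label, and the 7 grey points have intervals that include 0.

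Levels between libraries are given as CPM (counts per 1e+06 fragments, on library sizes scaled by TMM). Among the fast sensors, *Syt2* had 549.6, 528.2 and 580.7 CPM in libraries labelled cKO, against 530.3, 552.8 and 527.7 CPM in controls. The highest was cKO replicate 3, and the groups overlapped. The log2 fold change was 0.042 (standard error, SE, 0.045, 95% interval -0.054 to 0.14, adjusted p = 0.924 from edgeR), an interval that spans a change from 3.64% lower to 10.02% higher in the libraries labelled cKO. *Syt1* had 326.6, 373.4 and 345.5 CPM in cKO libraries, against 337.0, 336.5 and 360.5 CPM in controls. The cKO replicates 1 and 2 bounded the range of the 6 libraries, and the log2 fold change was 0.016 (SE 0.051, 95% interval -0.092 to 0.12, adjusted p = 0.979 from edgeR).

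*Syt9*, which in mice acts as a fast sensor in limbic and striatal neurons, had 22.1, 21.3 and 21.6 CPM in libraries labelled cKO, against 24.8, 26.2 and 23.4 CPM in controls. All 3 cKO libraries lay below the lowest control, as in 6.54% of all loci tested. The log2 fold change was -0.19 (SE 0.080, 95% interval -0.36 to -0.023, unadjusted p = 0.0280), and the adjusted p was 0.638 from edgeR, so that the difference did not pass correction over all loci. The adjusted p ran from 0.351 to 1.00 over the alternatives, with log2 fold changes from -0.25 to -0.12. Without the libraries whose *Hoxa5* locus went against their labels (cKO replicate 1 and control replicate 3) the value was -0.25 (adjusted p = 0.351 from edgeR).

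*Syt4*, an atypical member of dense-core vesicles and the Golgi on chromosome 18 from 31437808 to 31447415, had 196.15, 199.98 and 189.97 CPM in libraries labelled cKO, against 223.6, 212.7 and 211.1 CPM in controls. The gap between the highest cKO library and the lowest control was small beside the level. The groups did not overlap, as for 6.54% of all loci tested on the lower side. The log2 fold change was -0.14 (SE 0.046, 95% interval -0.24 to -0.046, unadjusted p = 0.00627, adjusted p = 0.351 from edgeR). This interval spans a level 15.3% to 3.16% lower in the libraries labelled cKO. With the mean log2 level of 7 granule neuron markers as a covariate, the sign turned (0.033, adjusted p = 1.00 from edgeR). That level was 3.25 to 3.48 log2 CPM in cKO libraries and 4.62 to 5.54 in controls, so the covariate and the label cannot be told apart and the turned sign says nothing of either.

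**Figure D4:**
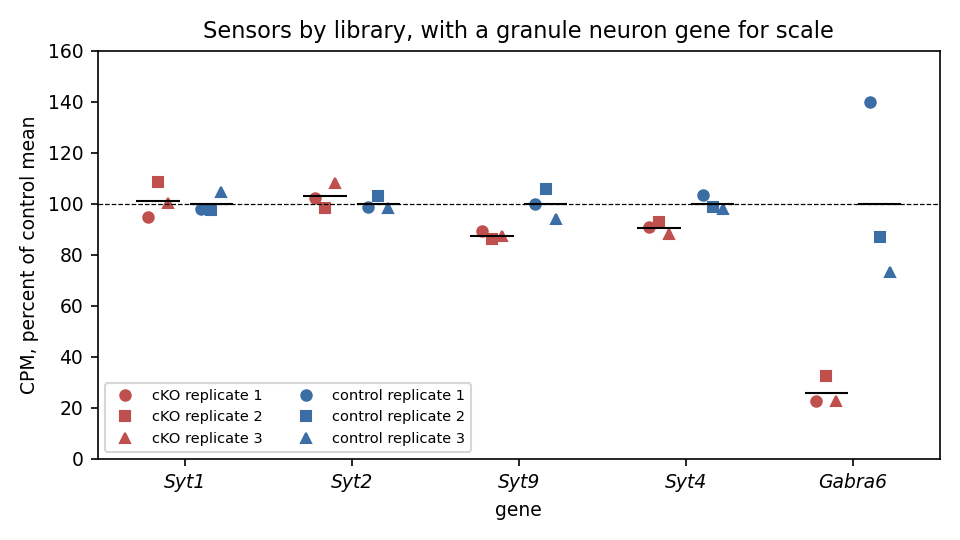
CPM of 4 synaptotagmin genes and of *Gabra6*, a granule neuron gene, as a percent of the control mean (y axis) by gene (x axis), where each point is a library (colored by label, shaped by replicate) and lines give the means. The cKO libraries lie at 86.0% to 89.2% for *Syt9* and 88.0% to 92.7% for *Syt4*, overlap the controls for *Syt1* and *Syt2*, and lie at 22.6% to 32.6% for *Gabra6*.

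*Syt11*, the other atypical member (chromosome 3, 88744684 to 88775145), had 823.7, 778.5 and 733.7 CPM in libraries labelled cKO, against 765.1, 784.6 and 778.6 CPM in controls. The spread of the cKO libraries enclosed all controls, with a log2 fold change of 0.0047 (SE 0.046, 95% interval -0.092 to 0.10, adjusted p = 0.993 from edgeR). *Syt7*, the slow sensor (chromosome 19, 10389027 to 10453181), had 133.0, 146.9 and 143.2 CPM in cKO libraries, against 150.6, 143.5 and 146.2 CPM in controls. Only cKO replicate 1 stood clearly lower, and the log2 fold change was -0.057 (SE 0.050, 95% interval -0.16 to 0.049, adjusted p = 0.902 from edgeR). *Syt5* (chromosome 7, 4539764 to 4547500) had 19.4, 23.2 and 19.4 CPM in cKO libraries, against 18.0, 19.1 and 19.7 CPM in controls. The highest value was that of cKO replicate 2 and the other 5 libraries lay together, with a log2 fold change of 0.13 (SE 0.093, 95% interval -0.071 to 0.32, adjusted p = 0.884 from edgeR).

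Of the complexins, *Cplx1* (chromosome 5, 108518554 to 108550027), which serves many fast inhibitory and brainstem synapses, had 445.1, 418.8 and 426.9 CPM in libraries labelled cKO, against 424.5, 429.6 and 421.6 CPM in controls. It varied least of the 10 genes, with a coefficient of variation of 2.18% over the 6 libraries, and its log2 fold change was 0.017 (SE 0.042, 95% interval -0.072 to 0.11, adjusted p = 0.972 from edgeR). *Cplx2* (chromosome 13, 54301907 to 54385386), the form that prevails in many excitatory forebrain neurons, had 231.6, 257.2 and 273.0 CPM in cKO libraries, against 266.4, 252.3 and 278.2 CPM in controls. The lowest was cKO replicate 1, and the log2 fold change was -0.065 (SE 0.057, 95% interval -0.19 to 0.055, adjusted p = 0.902 from edgeR). Over the 9 tested members the coefficient of variation was highest for *Syt5*, at 8.81%.

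With all 6 libraries, TMM and the filter, edgeR called no gene of 3 wider lists of the release machinery. It called 0.531% of all loci tested, so 0 calls in lists of this size do not set them apart. Of 21 further genes of the synaptotagmin, synaptotagmin-like, complexin, DOC2 and rabphilin families, 17 were tested and edgeR called 0 (at unadjusted p below 0.05, 1 lower and 0 higher, against 4.03% and 2.91% of all loci, with 0 called by DESeq2 and 0 by limma, median log2 fold change 0.0067). *Doc2b*, a soluble calcium-binding relative of the synaptotagmins, had the smallest p of these, with 15.2 ± 1.78 CPM in libraries labelled cKO and 18.5 ± 1.96 CPM in controls (SD, n = 3 each). Its log2 fold change was -0.29 (SE 0.11, unadjusted p = 0.0172, adjusted p = 0.554 from edgeR). *Syt3* (0.12, adjusted p = 0.794) and *Sytl2* (-0.073, adjusted p = 0.860) followed. The most abundant per length were *Rph3a* (65.0 FPKM), which encodes rabphilin, a RAB3 effector, *Syt13* (36.0 FPKM) and *Syt3* (25.01 FPKM).

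Of 25 genes of the SNARE and fusion machinery, 24 were found and 23 tested, and edgeR called 0 (at unadjusted p below 0.05, 2 lower and 1 higher, beside the same 4.03% and 2.91% of all loci, with 0 called by DESeq2 and 0 by limma, median log2 fold change 0.022). These were *Vamp3* (-0.17, adjusted p = 0.619) and *Stxbp5l*, on a locus merged with *Polq* (-0.095, adjusted p = 0.688), on the lower side, and *Napb*, the neuronal SNAP that works with NSF to take spent SNARE complexes apart (0.096, adjusted p = 0.638 from edgeR), on the higher side. *Snap25* (616.6 FPKM), *Vamp1* (264.5 FPKM) and *Nsf* (176.7 FPKM) were the most abundant. *Vamp1*, the vesicle SNARE of many brainstem and spinal synapses, had 635.4, 624.4 and 627.5 CPM in libraries labelled cKO, against 579.3, 605.3 and 601.1 CPM in controls, without overlap, as for 5.61% of all loci on the higher side (log2 fold change 0.080, SE 0.041, adjusted p = 0.773 from edgeR).

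Among 26 synaptic vesicle genes, all tested, edgeR and limma called 0 (at unadjusted p below 0.05 from edgeR, 3 lower and 0 higher, where 4.03% and 2.91% of all loci were, median log2 fold change 0.027) and DESeq2 called 1, *Slc17a7*. This gene encodes the vesicular glutamate transporter VGLUT1 of granule and precerebellar neurons, and had 78.0, 71.2 and 76.9 CPM in libraries labelled cKO, against 113.1, 96.8 and 82.1 CPM in controls. Each cKO library lay below each control, as in 6.54% of all loci tested. The controls were spread widely (log2 fold change -0.37, SE 0.085, adjusted p = 0.0675 from edgeR and 0.0200 from DESeq2). edgeR called it in 6 of its alternative fits, namely without cKO replicate 1 (adjusted p = 0.0432), without control replicate 3 (0.00243), without both (0.00108), with the replicate block (0.0250), with library size alone (0.0472) and without the filter (0.00308). It was not called without control replicate 1 (0.506), cKO replicate 2 (0.295), control replicate 2 (0.174) or cKO replicate 3 (0.151). Nor was it with upper-quartile scaling (0.0816) or a filter of at least 50 fragments in 3 libraries (0.117, all adjusted p from edgeR). With the granule neuron markers as a covariate, which separates the labels in the same way, it was 0.34 on the log2 scale (edgeR adjusted p = 1.00). *Rab3d* (-0.41, adjusted p = 0.583) and *Synpr* (-0.21, adjusted p = 0.638 from edgeR) were the other 2, and *Syp* (272.7 FPKM), *Rab3a* (221.7 FPKM) and *Sv2a* (121.3 FPKM) were the most abundant of the list.

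**Figure D5:**
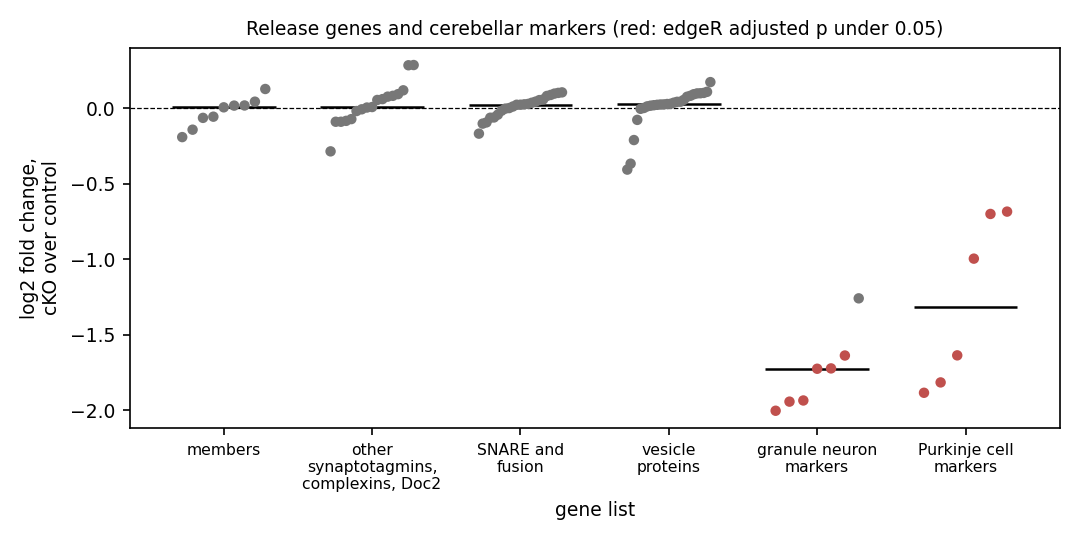
Log2 fold change, labelled cKO over labelled control (y axis), of each tested gene in 6 lists (x axis), with red for an edgeR adjusted p under 0.05 and black lines for list medians. The release gene lists have medians from 0.0047 to 0.027 and no red point, while the 7 restricted granule neuron markers and the Purkinje cell markers have medians of -1.72 and -1.32.

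The libraries carried the markers of their tissue. The 10 brainstem neuron markers, *Slc6a5* and *Glra1* of glycinergic synapses among them, summed to 1289 to 1505 CPM in libraries labelled cKO and 1282 to 1410 CPM in controls, with 0 of 10 called. The 8 forebrain neuron markers summed to 83.1 to 89.1 CPM in cKO libraries and 84.0 to 87.2 CPM in controls, with 0 of 5 tested called. Since edgeR called 0.531% of all loci tested, 0 calls in lists this short do not show equal levels. They ranged from *Cux2*, with 781, 884 and 827 fragments in cKO libraries, against 792, 804 and 852 in controls, to *Emx1*, with 2, 0 and 3, against 3, 0 and 1. Markers of cerebellar cells moved with the label. Of a list of 10 granule neuron markers edgeR called 7 lower, where it called 0.503% of all loci tested lower. *Tlx3* (0.21, adjusted p = 0.943) and *Calb2* (-0.15, adjusted p = 0.564 from edgeR) were among the 3 not called. Of the 7 markers of that list more restricted to granule neurons edgeR called 6 lower, *Gabra6* among them (14.8 ± 3.25 CPM in cKO libraries and 57.0 ± 20.1 CPM in controls, SD, n = 3 each; log2 fold change -1.93), and their summed level ran from 112.3 to 142.4 CPM in cKO libraries and from 302.2 to 587.2 CPM in controls. All 6 Purkinje cell markers were called lower, with sums of 259.4 to 320.9 CPM in cKO libraries and 493.0 to 765.7 CPM in controls, and *Pcp2* had a log2 fold change of -1.81. Much of the sum was *Itpr1*, with 170.3, 217.3 and 194.5 CPM in cKO libraries, against 500.8, 327.9 and 333.1 CPM in controls. The study's in situ hybridization also detected *Itpr1* and *Calb1*, both in this list, in brainstem nuclei, so the sum need not come from Purkinje cells alone. For *Gabra6*, the paper cites reports of expression in some precerebellar nuclei as well as in cerebellar granule cells. The granule neuron markers therefore need not come from granule neurons alone. Of 9 pan-neuronal markers, 1 was called, *Rbfox3* (log2 fold change -0.30, adjusted p = 0.0205 from edgeR), and the median of the 9 was 0.036. The call of *Rbfox3* was lost without cKO replicate 2 (adjusted p = 0.0518), control replicate 1 (0.176) or control replicate 2 (0.0628, all from edgeR). The part of the cerebellar markers in the values of *Syt4*, *Syt9* and *Slc17a7* was not tested, since their levels separate the labels completely.

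Genes that followed each fast sensor most closely over the 6 libraries were different ones for each sensor. Among 8696 singly named loci with a mean of at least 4 log2 CPM, the highest Pearson correlations over 6 libraries with *Syt2* were those of *Pus7* (0.991), *Appbp2* (0.991) and *Slc6a5* (0.986), the glycine transporter of inhibitory terminals. For *Syt1* they were *Slc6a7* (0.998), a brain proline transporter, *Ptov1* (0.989) and *Vmn1r58* (0.984), and for *Syt9* they were *Vps54* (0.987), *Nasp* (0.986) and *Carf* (0.977). These are the largest of many values over 6 points that share the dissection of each pool, on levels already scaled for library depth. They are given as descriptions.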

How the data were processed

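RNA of whole P21 brainstems, pooled by 3, was made into 6 stranded, ribosomal RNA-depleted libraries and sequenced on an Illumina NextSeq. Per the submitters' processing notes and the study's methods, the authors used CASAVA 1.6 for base calls, TopHat2 2.0.9 for alignment (mm10), Cufflinks 2.2.0 for the merged assembly and Cuffdiff for quantification. Whether counting used the strand is not given in the sources used here. The deposited counts are whole fragments per locus and library, and the deposited FPKM had been scaled between libraries by the authors with Cuffdiff. Exon coordinates came from the deposited assembly. The 2 columns of scaled fragments beside the counts were not used.

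Loci kept by filterByExpr were scaled by TMM and compared with edgeR 4.0.16 in R 4.3.3 over 21854 loci (common coefficient of biological variation 0.0552). Libraries held 12034613 to 13202707 fragments. Shares and ratios were compared by exact permutation tests in scipy 1.17.1, where 3 against 3 cannot go below p = 0.1. Intervals are the estimate ± the t quantile times the standard error taken from the edgeR statistic. Alternatives were DESeq2 1.42.0, limma 3.58.1 on log2(FPKM + 1) and log2(FPKM + 0.1) (FPKM of 1 or more in 3 libraries, or unfiltered), other scalings and filters, each library left out, the replicate number as a block, granule neuron markers as a covariate, and the libraries whose *Hoxa5* locus goes against the label left out. The methods were tested on simulated data. Pools are the replicates, and nothing in the table ties them to the numbered pools.

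The members and lists were chosen with earlier results of these data known. Named are all members, *Hoxa5*, the genes of each release list with the 3 smallest p and the 3 highest FPKM, marker examples, and the 3 genes most like each fast sensor. *Vamp1*, *Vamp2*, *Slc6a5*, *Glra1*, *Cux2*, *Emx1*, *Tlx3* and *Calb2* were described at more length after their values were seen.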

Additional observations from a re-analysis of the deposited data

How the results depend on the processing

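No member was called under any of the 17 alternatives, and *Syt5* and *Syt9* kept their direction in each in which they were tested, with *Syt5* from 0.039 to 0.20 on the log2 scale. Signs turned for the members that follow. With the granule neuron covariate, which cannot be told apart from the label, the log2 fold change was -0.049 for *Syt1*, -0.028 for *Syt2*, 0.033 for *Syt4*, 0.069 for *Syt7*, -0.035 for *Syt11* and -0.00086 for *Cplx1*. That of *Syt11* was -0.00014 with limma on log2(FPKM + 1) with and without the filter, -0.00015 on log2(FPKM + 0.1) and -0.00080 with library size alone. Without cKO replicate 1 and control replicate 3 together it was -0.035 for *Syt11*, -0.014 for *Cplx1* and 0.032 for *Cplx2*, and the cKO minus control difference was -0.62 percentage points for the *Syt2* share, -0.50 for the *Cplx1* share and -0.062 for the log2 ratio of *Syt2* to *Syt1*. With 1 library left out the log2 fold change ran from -0.033 to 0.060 for *Syt1*, from -0.038 to 0.045 for *Syt11* from -0.0084 to 0.040 for *Cplx1*, from 0.0048 (without cKO replicate 3) to 0.078 (without cKO replicate 2) for *Syt2*, from -0.084 to -0.017 (without cKO replicate 1) for *Syt7* and from -0.12 (without cKO replicate 3, unadjusted p = 0.0438 from edgeR) to -0.0039 (without cKO replicate 1) for *Cplx2*, the *Syt2* share from -0.042 to 2.15 percentage points, the *Cplx1* share from -0.043 to 1.33 and the log2 ratio from -0.022 to 0.11. Each cause was not tested. Over all loci, edgeR's 110 lower calls were 42 without control replicate 1, 64 without cKO replicate 3, 194 without the filter and 0 with the granule neuron covariate, and limma on log2(FPKM + 1) gave 0.

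The replicate numbers gave no sign of pairing the libraries, though this check cannot show that no litter was shared. Deviations of same-numbered libraries from their group means correlated at 0.075, -0.239 and 0.031 for numbers 1, 2 and 3 (9598 loci). Pairs of unlike number ran from -0.167 (cKO replicate 1 with control replicate 3) to 0.196 (cKO replicate 2 with control replicate 3). With the replicate block 0 members were called, *Syt4* had a log2 fold change of -0.14 (adjusted p = 0.428 from edgeR), and the differences in the *Syt2* share (0.773 percentage points), the *Cplx1* share (0.815 percentage points) and the log2 ratio (0.029) are by construction those without pairing. Depth limits *Cplx3*, with at most 10 fragments in a library.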

Other observations

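A pair of genes of glycinergic synapses are given by library as values with no test, since both were chosen after their values were seen and *Slc6a5* as one of the genes most like *Syt2*. *Slc6a5* had 239.6, 200.4 and 270.6 CPM in cKO replicates 1, 2 and 3, against 206.7, 238.7 and 201.8 CPM in control replicates 1, 2 and 3. The glycine receptor gene *Glra1* had 752.5, 654.7 and 815.6 CPM in the cKO libraries, against 670.8, 750.4 and 670.9 CPM in the controls. In both genes cKO replicate 2 was lowest and cKO replicate 3 highest, and cKO replicate 2 and control replicate 3, the libraries with more *Syt1* than *Syt2* FPKM, were among the 3 lowest. The ratio of *Syt2* to *Syt1* was highest in cKO replicate 1, in which neither gene was highest.

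The vesicle SNARE genes differed in spread among libraries. *Vamp2* had 104.7, 129.8 and 145.4 CPM in libraries labelled cKO, against 123.5, 122.8 and 120.4 CPM in controls, so that cKO replicates 1 and 3 were the lowest and highest of the 6. *Vamp1* ran from 624.4 to 635.4 CPM in the cKO libraries and from 579.3 to 605.3 CPM in the controls. The coefficient of variation over the 6 libraries was 10.7% for *Vamp2* and 3.41% for *Vamp1*, while within the controls *Vamp2* varied less.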
